A study of Mus musculus with 8 samples.

Results

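Cflar and Bcl2 are 2 genes of cell survival, and together they held 98 of the 8492 cytosine positions in a deposited table of RNA methylation in Tet2-deficient mast cells. The sites were chosen by their positions: every listed site on chromosome 1 inside the annotated span of either gene on build GRCm38, which gave 78 sites in Cflar and 20 in Bcl2. The authors had listed the positions as specific to the Tet2-deficient group, on the levels of these same libraries, so the levels below are a description and are not evidence that they depend on Tet2. Mast cells were grown from the femoral marrow of C57BL/6 mice with IL-3 and SCF for weeks and were positive for FcεRI and c-Kit. The labels describe 8 libraries, 4 of genotype wild type and 4 of genotype Tet2-/-, in each case 2 biological replicates sequenced as 2 technical replicates. Levels were analysed for the 4 Tet2-/- libraries, called 1a and 1b (biological replicate 1) and 2a and 2b (biological replicate 2) from here on. Levels in wild-type cells were not used here, and nothing below compares genotypes. Whether a biological replicate was 1 mouse or a pool is not given in the sources used here.

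Cflar encodes c-FLIP, a relative of caspase-8 without protease activity that joins the adaptor FADD and caspase-8 at activated death receptors and holds back apoptosis. Bcl2 encodes the founding member of the BCL-2 family, a protein of the outer mitochondrial membrane that binds pro-apoptotic relatives and keeps cytochrome c inside. Mast cells need cytokines such as SCF and IL-3 to stay alive, and members of the BCL-2 family take part in the death that follows their loss. Tet2 encodes a dioxygenase that oxidises 5-methylcytosine. In RNA bisulfite sequencing unmodified cytosine is read as thymine, and a site's level is the percentage of reads that still show cytosine. Unmodified cytosine that escaped conversion would count in that percentage as well, and its part in the levels was not tested.

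In Cflar (gene ID 12633, plus strand) the span runs over chr1:58711311-58758884, and the 78 sites occupied 1488 bases of its 47574. They lay 5673 to 7160 bases downstream of the annotated start site, that is within 11.9% to 15.1% of the span's length. In Bcl2 (gene ID 12043, minus strand) the span runs over chr1:106538176-106714290, and the 20 sites occupied 604 of its 176115 bases. They lay 39621 to 40224 bases downstream of the start site, at 22.5% to 22.8% of the span. No site of either gene lay inside the span of another gene, and no other listed site was found within 50 kb of either span. The nearest listed sites outside were 10848 kb above Cflar and 999.4 kb below Bcl2. The 300-base windows around the 2 annotated start sites, from 250 bases before to 50 bases after, held 0 listed sites. Neither exons nor the bases around the sites were analysed here, and the table gives no strand, so it cannot be said whether a site lay in the mature mRNA or which base context it had.

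The sites of Cflar had a mean level of 33.7% ± 0.356 (SD, n = 2). The 4 libraries read 38.9% (1a), 29.0% (1b), 33.7% (2a) and 33.2% (2b). Library 1a was the highest and 1b the lowest, so the range of 9.84 points lay inside biological replicate 1 and the means of the biological replicates, 34.0% and 33.4%, nearly coincided. The small SD therefore understates the spread between libraries. Site means ran from 14.6% to 61.2% with a median of 29.3%. At 47 of the 78 sites (60.3%) every library was under 50%, against 31.4% of all listed sites. Only 1 Cflar site (1.28%) reached 50% in every library, against 33.6% of all listed sites. Library values at Cflar sites ran from 10% to 77.8%. The lower limit is that of the whole table, which lists no level under 10%.

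Sites of Bcl2 had a mean level of 48.2% ± 12.2 (SD, n = 2). The libraries read 49.7% (1a), 63.9% (1b), 33.4% (2a) and 45.7% (2b). Both libraries of biological replicate 1 lay above both of replicate 2, with means of 56.8% and 39.6%. Library 1b alone was the highest at 13 of the 20 sites, and library 2a alone the lowest at 16. These sites include runs of identical values, so the counts partly repeat the same observations. For such counts, here and below, the share over all listed sites is not given, so how unusual they are is not known. Site means ran from 12.7% to 68.3% with a median of 53.4%, and library values from 10% to 85.7%.

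Cflar stood below Bcl2 by 14.5 points on average, with a difference of -14.5 ± 11.8 (SD, n = 2). The difference was -10.8 in library 1a, -34.8 in 1b and -12.5 in 2b, whereas in 2a it was 0.25, so that the genes stood level there. By biological replicate it was -22.8 and -6.12 points, and without library 1b it was -8.49. With 2 biological replicates the difference was hardly larger than its SD. No test was made: both genes were measured in the same 2 biological replicates, an exact two-sided sign-flip permutation of 2 paired differences cannot give a p below 0.5, and neighbouring sites of a gene are not replicates.

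Sites in both genes fell into compact stretches, defined by joining sites up to 100 bases apart. Near and far are relative names here: even the nearest sites lay 5673 bases (Cflar) and 39621 bases (Bcl2) downstream of the annotated start sites. Cflar had a near stretch with 31 sites in 202 bases (chr1:58717164-58717365) and a far one with 47 sites in 253 bases (chr1:58718399-58718651). Those are 15.3 and 18.6 sites per 100 bases. Bcl2 had 3 stretches. The one nearest the start site of this minus-strand gene had 4 sites in 65 bases (chr1:106674605-106674669), the middle one 11 sites in 72 bases (chr1:106674183-106674254) and the far one 5 sites in 16 bases (chr1:106674066-106674081). Sites had a listed neighbour within 10 bases in 76 of 78 cases in Cflar (97.4%) and 20 of 20 in Bcl2, close to the 93.7% over all listed sites. The next base was also a listed site for 16 Cflar sites (20.5%) and 7 Bcl2 sites (35%), against 22.3% of all sites. As strand is not given, such pairs may be neighbouring cytosines of 1 strand or facing cytosines of both.

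The near stretch of Cflar had low levels. Its mean was 22.6% ± 3.07 (SD, n = 2), with 27.1% in library 1a, 22.3% in 1b, 19.6% in 2a and 21.2% in 2b. Library 1a was the highest of the 4, and all libraries were under 50% at each of the 31 sites. Site means ran from 14.6% at position 58717192, the lowest of the gene, to 34.0%. The first site of the gene, at position 58717164, read 30%, 13.0%, 20.8% and 21.1% in libraries 1a, 1b, 2a and 2b. In windows of 50 bases the mean was 19.8%, 22.0%, 27.5% and 20.6% with 6, 10, 7 and 7 sites, and the last window held a single site at 23.1%. There was thus no steady trend along this stretch, and Spearman's rho between position and level, over 31 sites that share reads, ran from -0.26 in library 1a to 0.58 in 2a.

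The far stretch of Cflar was higher, at 41.1% ± 1.43 (SD, n = 2). Libraries read 46.6% (1a), 33.4% (1b), 43.0% (2a) and 41.2% (2b), and library 1b was alone the lowest at 25 of the 47 sites. The far stretch exceeded the near one in 4 of 4 libraries, by 19.5 points in 1a, 11.1 in 1b, 23.4 in 2a and 20 in 2b. The mean excess was 18.5 ± 4.50 points (SD, n = 2), several times its SD. The lowest library of the far stretch stood above the highest of the near stretch.

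Within the far stretch the levels fell along the gene, though not steadily in every library. The first window of 50 bases, with 10 sites, averaged 54.2%, the next ones 41.5% (10 sites) and 43.9% (16 sites), and the fourth 25.4% (10 sites). The last site of the gene, at position 58718651, stood apart by 62 bases and had a mean of 16.6% ± 0.551 (SD, n = 2). Spearman's rho between position and level across the 47 sites was -0.83 in library 1a, -0.38 in 1b, -0.48 in 2a and -0.70 in 2b, a description of sites that share reads. All 4 values were negative. Library 1b was nearly flat before the fourth window, at 37.0%, 35.9% and 35.7%. From the second window to the third, library 2a rose from 37.4% to 49.1% and 2b from 39.7% to 43.1%.

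Library order changed along that stretch. In its first window library 1a read 68.7% and library 1b 37.0%, with 55.6% in 2a and 55.3% in 2b. There 1a alone was the highest at 8 of 10 sites and 1b alone the lowest at 9 of 10. In the fourth window the order was otherwise, with 19.2% in 1a, 25.5% in 1b, 29.1% in 2a and 27.5% in 2b, and 1a alone was the lowest at 6 of 10 sites. The highest site of the gene, at position 58718416, lay in the first window and read 76.5% (1a), 50% (1b), 58.3% (2a) and 60.0% (2b). The widest gap between biological replicates was in the fourth window, at position 58718568, with 11.8% and 15.4% in libraries 1a and 1b and 46.7% and 25% in 2a and 2b.

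**Figure D1:**
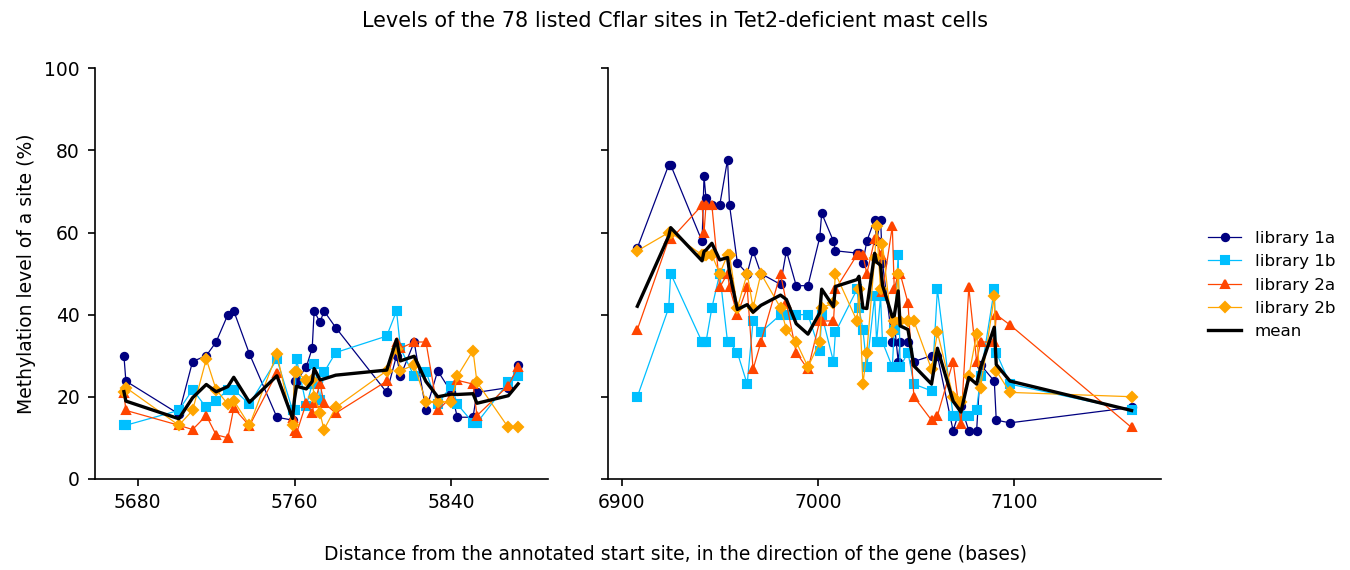
Methylation level in percent of each listed Cflar site (vertical axis) against its distance in bases from the annotated start site (horizontal axis, broken between the 2 stretches), with a coloured line per Tet2-deficient library and the mean in black. The near stretch averages 22.6%, while the far stretch begins at a mean of 54.2% in its first 50 bases and ends at 16.6%. In the far stretch library 1a has the highest mean in the first window of 50 bases and the lowest in the fourth. At the last site 1a reads 17.4% and 2a is the lowest at 12.5%.

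In Bcl2 the stretch nearest the start site had much lower levels than the other two. The near stretch had a mean of 14.1% ± 1.31 (SD, n = 2), with 12.3% in library 1a, 17.9% in 1b, 12.8% in 2a and 13.6% in 2b. Its 4 sites included the lowest of the gene, positions 106674605 and 106674607, with identical values of 11.1%, 14.3%, 10.0% and 15.4% in libraries 1a, 1b, 2a and 2b. The last site by position, 106674669, had a mean of 16.5%. All of these lie close to the 10% below which the table lists nothing, so what lies further down at other cytosines of the stretch is not shown.

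The middle stretch of Bcl2 averaged 56.5% ± 17.4 (SD, n = 2). Libraries read 53.5% (1a), 84.2% (1b), 37.5% (2a) and 50.9% (2b), and library 1b alone was the highest at 11 of 11 sites. The highest site of the gene, position 106674185, read 60.0%, 83.3%, 50% and 80.0% in 1a, 1b, 2a and 2b. Position 106674216 showed the widest gap between biological replicates, shared with the 3 positions that follow it, at 54.5% and 85.7% in libraries 1a and 1b against 33.3% and 40% in 2a and 2b. In library 2b the level stood at 80.0% at positions 106674183 to 106674185 and at 40% from 106674216 on, a wider step than in the other 3 libraries. Along the coordinate, Spearman's rho between position and level over the 11 sites was -0.94, -0.12, -0.50 and -0.77 in libraries 1a, 1b, 2a and 2b, so all 4 were negative, which on this minus-strand gene means higher levels farther from the start site. These sites share reads, and the values are a description.

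The far stretch of Bcl2 averaged 57.1% ± 9.36 (SD, n = 2), with 71.4% in library 1a, 56.0% in 1b, 41.0% in 2a and 60.0% in 2b. Here 1a, not 1b, was alone the highest, at 5 of 5 sites. The first site by position, 106674066, read 71.4%, 40%, 33.3% and 60.0% in libraries 1a, 1b, 2a and 2b. The middle stretch exceeded the near one by 41.2, 66.3, 24.7 and 37.3 points in libraries 1a, 1b, 2a and 2b, and the far stretch exceeded the near one by 59.2, 38.1, 28.1 and 46.4 points, so both differences held in 4 of 4 libraries. The mean excess was 42.4 ± 16.1 and 43.0 ± 8.06 points (SD, n = 2 for both). The middle stretch minus the far one was -18.0 points in library 1a, 28.2 in 1b, -3.46 in 2a and -9.09 in 2b. The mean difference was -0.578 ± 8.06 points (SD, n = 2), in which the opposite values of 1a and 1b partly cancel. Middle and far stretch could thus neither be told apart nor be called alike.

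**Figure D2:**
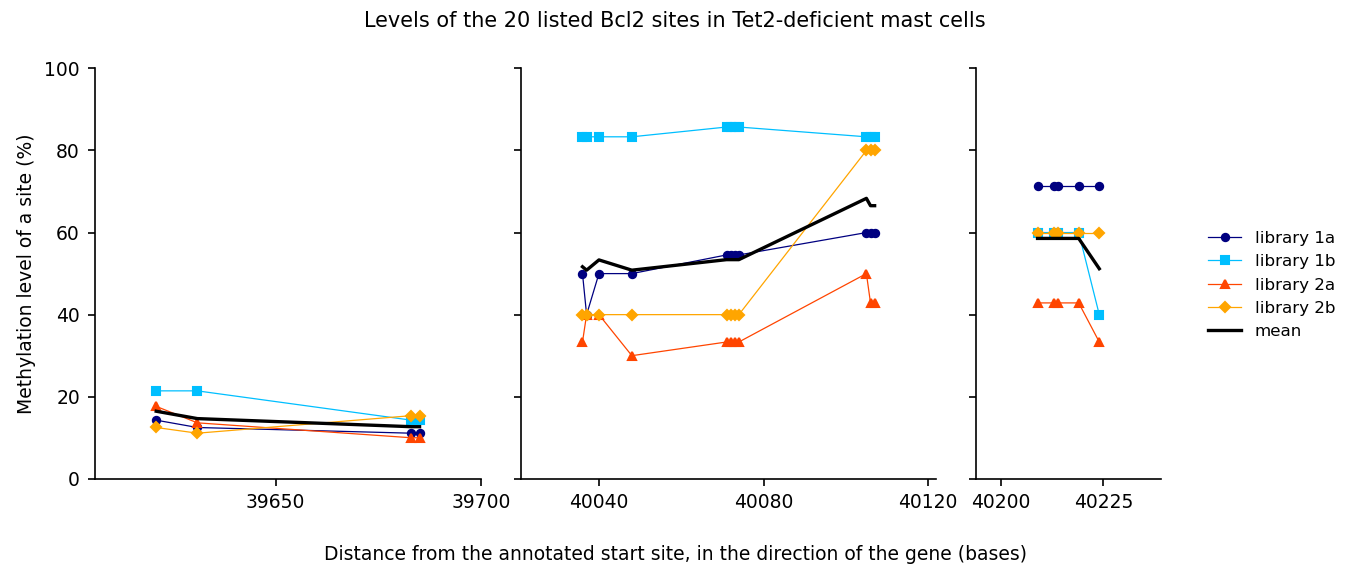
Methylation level in percent of each listed Bcl2 site (vertical axis) against its distance in bases from the annotated start site (horizontal axis, broken between the 3 stretches), with a coloured line per Tet2-deficient library and the mean in black. The 4 near sites lie at 21.4% or less in every library; in the middle stretch library 1b stays at 83.3% or more while library 2a is at 50% or less.

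Compared stretch by stretch, the genes differed in both directions. The middle stretch of Bcl2 exceeded the far stretch of Cflar by 6.84 points in library 1a, 50.8 in 1b and 9.74 in 2b, and differed by -5.47 points in library 2a (mean difference 15.5 ± 18.9, SD, n = 2), so this difference did not exceed its spread. The near stretch of Bcl2 was below that of Cflar in 4 of 4 libraries, with a difference of -8.42 ± 1.76 points (SD, n = 2).

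**Figure D3:**
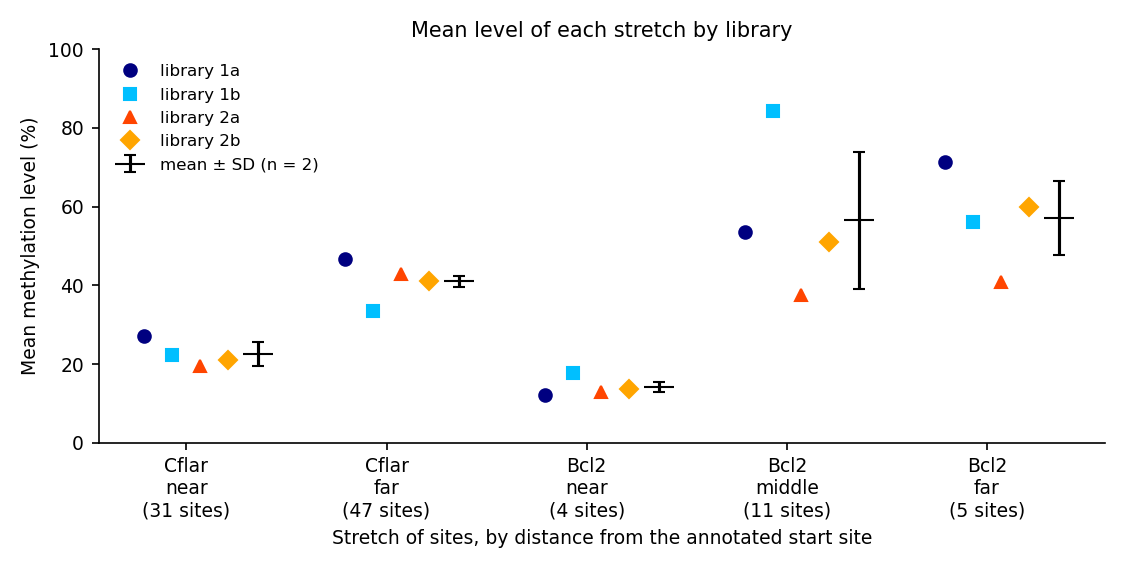
Mean methylation level in percent (vertical axis) of the 5 stretches of sites, ordered within each gene by distance from the annotated start site (horizontal axis); symbols are the 4 Tet2-deficient libraries, and the black tick and bar are the mean and SD of 2 biological replicates. The near stretches lie at 22.6% and 14.1%, below the other stretches of their gene in every library, and the Bcl2 middle stretch has the widest spread. Near is a relative name, as these stretches begin 5673 bases (Cflar) and 39621 bases (Bcl2) from the start sites.

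Neighbouring Bcl2 sites often carried the same numbers. Of 14 consecutive pairs of Bcl2 sites up to 10 bases apart, 8 (57.1%) had identical levels in all 4 libraries, with differences under 1e-06 points. In Cflar this held for 0 of 68 pairs, and over all listed sites for 436 of 6597 (6.61%). The longest such runs in Bcl2 were 4 sites from 106674071 to 106674081, at 71.4%, 60.0%, 42.9% and 60.0% in libraries 1a, 1b, 2a and 2b, and the 4 sites from 106674216 to 106674219 described above. These runs carry little more information than single sites, and the 20 Bcl2 sites came down to 6 when positions within 10 bases were merged. Read numbers were not analysed, so the depth behind the levels is unknown. Values in every stretch of Bcl2 equal fractions of small whole numbers, such as 71.4% and 42.9%, or 11.1% and 14.3% in the near one. So do values in the far stretch of Cflar, such as 33.3% and 41.7%. Each of these levels may thus rest on few reads, which was not tested.

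Neighbouring sites also moved alike between libraries, measured as each level minus that site's average and minus the library's average. For sites 1 to 10 bases apart they correlated at 0.98 over 23 pairs in Bcl2 and at 0.52 over 155 pairs in Cflar, against 0.76 over all listed sites. At 51 to 150 bases the correlation was 0.49 over 48 pairs in Bcl2 and 0.04 over 779 pairs in Cflar, with 0.25 over all listed sites. These are descriptions over pairs that share sites and libraries. In Cflar the deviations of sites 51 to 150 bases apart thus had almost no correlation when all pairs were pooled. Pairs that moved together and pairs that moved in opposite directions can cancel in such a value. Library order did change along the far stretch, as described above.

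Among the 53 genes with 10 or more listed sites, Bcl2 was at the median level, at rank 27 from the top, and Cflar at rank 42. Their middle 50% lay between 35% and 61.8%, so Cflar was just under that range. The near stretch of Cflar, as a region of sites joined up to 500 bases apart, had rank 138 of 146 regions with 10 or more sites, whose median level was 46.3%. The far one had rank 88, and the single Bcl2 region rank 65. The genes closest to Cflar by the mean absolute difference over the 4 libraries were Zfp369 (32.5%, apart by 2.68 points), Cd200r3 (31.5%, 2.71 points) and Dgki (35%, 2.93 points). Those closest to Bcl2 were Tbc1d5 (55.0%, 7.90 points), Gpr141 (52.7%, 8.22 points) and Ccdc82 (40.4%, 8.28 points). By this measure the gene nearest to Bcl2 was 7.90 points away, while 3 genes lay within 3 points of Cflar. The measure takes the level and not the order of libraries. C030034L19Rik, for example, had the same order as Bcl2, with 65.3%, 68.7%, 47.6% and 58.5% in libraries 1a, 1b, 2a and 2b.

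**Figure D4:**
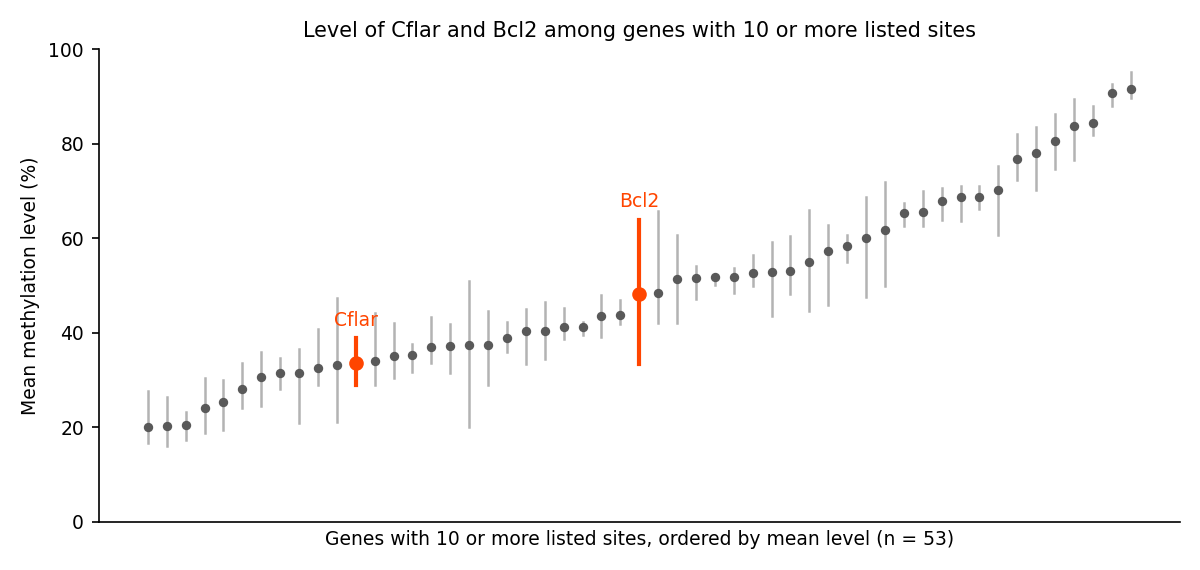
Mean methylation level in percent (vertical axis) of the 53 genes with 10 or more listed sites, ordered by level (horizontal axis); points are means of 2 biological replicates and lines span the 4 Tet2-deficient libraries. Cflar lies at 33.7% in the lower part and Bcl2 at 48.2% in the middle, with a library range of 30.5 points.

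Agreement between biological replicates differed between the 2 genes. The gap between replicates was 17.2 points in Bcl2, the widest of the 53 genes with 10 or more sites, and 0.504 points in Cflar, rank 50, where the median gene had 3.14 points. The range over the 4 libraries was 30.5 points in Bcl2 (rank 2) and 9.84 in Cflar (rank 29, median 10.5), so on that measure Cflar was an ordinary gene. Bcl2 had only 20 sites in a few short runs, and the role of site number or read depth in its gap was not tested. As a region, Bcl2 had rank 7 of 146 by the gap. The near and far regions of Cflar had gaps of 4.34 points (rank 64) and 2.03 points (rank 108) in opposite directions, with replicates at 24.7% and 20.4% in the near one and at 40.04% and 42.06% in the far one, so the small gap of the gene was the balance of both. Column names of the table give 2 numbers, and the first was read as the biological replicate. With the second number read so, the replicates stood at 41.6% and 54.8% in Bcl2 (a gap of rank 3 of 53) and at 36.3% and 31.1% in Cflar (rank 19). The replicate agreement of Cflar thus hangs on that reading.

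**Figure D5:**
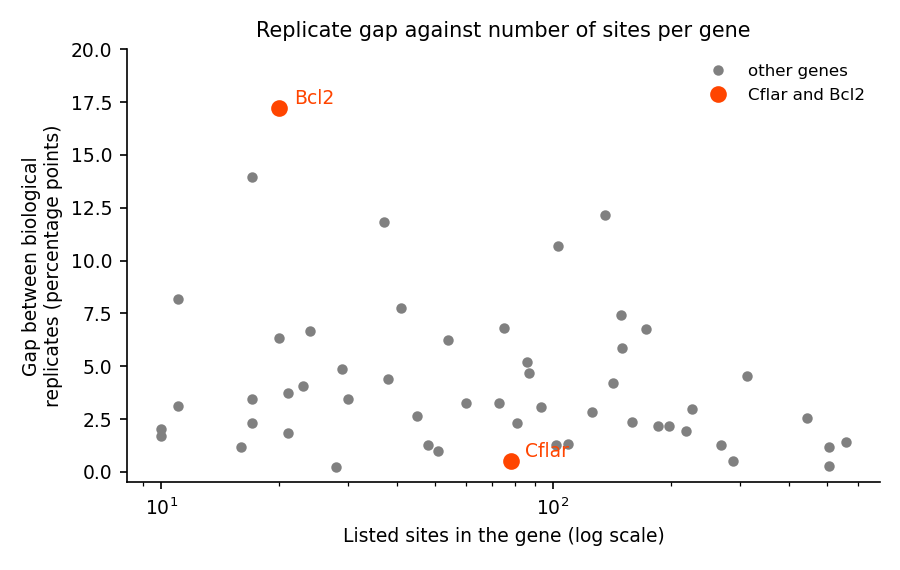
Gap between the 2 biological replicates in percentage points (vertical axis) against the number of listed sites (horizontal axis, log scale) for the 53 genes with 10 or more sites. Bcl2, with 20 sites, has the widest gap at 17.2 points and Cflar, with 78 sites, one of the narrowest at 0.504.

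Site by site, both libraries of biological replicate 1 lay above both of replicate 2 at 7 of 20 Bcl2 sites (35%), all in the middle stretch, and at 11 of 78 Cflar sites (14.1%). Over all listed sites this share was 14.7%. The opposite held at 0 Bcl2 sites and 10 Cflar sites (12.8%), against 15.7% of all listed sites. Cflar was near the background in both directions. The 7 Bcl2 sites include a run of identical values, so they are not 7 separate observations.

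Other genes on a list of 72 survival genes had no listed site. Of these 72 genes, all found in the annotation, 2 had sites (2.78%), namely Cflar and Bcl2, against 0.22% of all annotated genes. As the pair was picked because it has sites, nothing is read from that share. In the BCL-2 family 1 of 19 genes had sites, and the 18 without included Mcl1 and Bcl2l1, which restrain apoptosis as Bcl2 does, Bcl2l11, the BH3-only gene of Bim, and the pore formers Bax and Bak1. In the death receptor pathway 1 of 18 had sites, and Fas, Fadd and Casp8 had none. Casp8, the protease that c-FLIP restrains, begins at 58795233, a short way downstream of Cflar on the same chromosome. None of 18 caspases and inhibitors, such as Apaf1 and Xiap, and none of 17 genes of mast cell survival signalling, such as Kit and Il3ra, had a site. At a share of 0.22% of all annotated genes, lists this short would mostly hold no gene with a site. Nothing is therefore read from the lists without one. The lists are also a selection. Gab2 (93 sites) and Socs3 (5 sites), genes of cytokine signalling, were not on them. A gene without a listed site may have had levels under 10%, too few reads, or sites not chosen as specific, so absence does not show that its RNA was unmethylated.

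Across the series the mean level was 53.7%, 49.5%, 49.9% and 53.8% in libraries 1a, 1b, 2a and 2b, so library 1b, the highest in Bcl2, was not high in general. Chromosome 1 held 1041 of the listed sites (12.3%), of which 819 lay in the spans of 7 genes. The table measures no expression, so the labelled cell type could not be checked by marker levels; 2 of 12 genes on a mast cell marker list (16.7%, Il1rl1 and Cpa3) and 1 of 21 on lists for other blood cells (4.76%) had listed sites, against the 0.22% of all annotated genes. The latter was Cd200r3, listed for basophils but also a receptor of mouse mast cells. The lists were chosen with earlier results of these data known. Cpa3 had 1 site, and 10 of the 12 mast cell markers had none. Nothing is read from these shares about the cell type.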

How the data were processed

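Poly(A) RNA was treated with DNase, converted with bisulfite beside unmethylated lambda RNA and made into stranded paired-end libraries, per the labels' protocols. The authors deposited per-library methylation rates of single sites, fractions per the file headers, with sites picked by them as specific to the Tet2-deficient group. Values were multiplied to percent. The builds mm10 and GRCm38 are named in the submitters' processing notes. The aligner, site caller, conversion rate and coverage minimum were not given in the sources used here.

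Sites were matched to RefSeq gene spans of GRCm38.p6; start sites and strands came from the RefSeq promoter table of that build. Technical replicates were averaged, and SDs are over 2 biological replicates, which the labels call biological without naming animals. The genotype comparison, exon structure and sequence context planned at the start were not run, as wild-type levels, exons and a genome were not used here. Named sites of each gene are the highest, lowest, first, last and that with the widest replicate gap. Likeness of genes used those with 10 or more sites. The members and lists were chosen with earlier results of these data known, and the 100-base stretches and 50-base windows describe patterns after seeing the data. Region joining, gene assignment and the neighbour correlation were tested on simulated data. Software was Python 3.11.15 with matplotlib 3.10.9, scipy 1.17.1, pandas 2.3.3 and numpy 2.4.6.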

Additional observations from a re-analysis of the deposited data

How the results depend on the processing

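Leaving out each library in turn, and counting each stretch once or, for the difference, each region once, were chosen after seeing the data. The Cflar level of 33.7% became 29.3% without clustered sites (another listed site within 10 bases), which left only 2 sites. It was 43.9% with at least 20% in every library, a filter on the level itself. It was 31.4% as the median over sites, 31.1% with positions within 10 bases merged and 31.8% with each region or each stretch counted once. It ran from 31.2% to 36.2% with a library left out. The Bcl2 level of 48.2% ran from 42.6% with each stretch counted once to 56.7% with at least 20% in every library, and from 39.6% to 56.8% without a biological replicate, all within its wide SD. Cflar stayed below Bcl2 in the 12 alternatives that gave a value. The differences included -6.12 points without replicate 1, -22.8 without replicate 2, -20.5 without library 1a, -8.49 without 1b and -21.4 as medians. Reading the column names the other way is among the 12 and could not change the difference, as it regroups the same libraries. The other alternatives reuse those libraries, so they are not separate support, and in library 2a alone the difference was 0.25. Without clustered sites Bcl2 had none left, so that setting gives no Bcl2 level and no difference. The number of Cflar sites was 42 at 20% or more in every library and 10 with positions within 10 bases merged; Bcl2 had 16 and 6. Sites joined up to 100 bases apart gave 5 regions in the 2 genes in place of 3. Reading the column names the other way changed the SD to 3.64 in Cflar and 9.36 in Bcl2. No paired analysis was possible because replicate numbers are shared between genotypes and only Tet2-/- was used here; differences between genes or stretches were taken within each replicate. The genotype fits and coverage settings were not run. With no read numbers, the limits set by depth are unknown.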
